A study of Rattus norvegicus with 8 samples.

Results

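Genes of the bone morphogenetic protein (BMP) pathway, 10 in all, were measured in rat hippocampus: the ligand genes Bmp2, Bmp4, Bmp6 and Bmp7, the receptor genes Bmpr1a and Bmpr2, the antagonist gene Nog, and the target genes Id1, Id2 and Id3. They were found by the gene name that the array files give to each probe. Each of the 10 genes had 1 probe, all 10 probes passed the filter on dim signals, and they made up 10 of the 18803 features tested. The animals were male Sprague Dawley rats aged 3 months. Of these, 4 received vehicle and 4 received yohimbine together with imipramine (Y+I) over 7 days, and hippocampal RNA was taken 2 h after treatment. The first drug is an antagonist of alpha2-adrenoceptors, and the second, a tricyclic antidepressant, slows reuptake of noradrenaline and serotonin. The series holds no group given only 1 of the drugs, so the drugs cannot be told apart. The dose and route are not given in the sources used here. Each animal had its own 1-colour array (n = 4 per group).

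BMPs are secreted proteins of the transforming growth factor beta superfamily. They bind complexes of type I receptors, such as the product of Bmpr1a, and type II receptors, such as the product of Bmpr2. The receptors phosphorylate Smad proteins, which enter the nucleus with Smad4 and raise transcription of the Id genes. Id proteins lack a DNA-binding domain and hold basic helix-loop-helix factors in inactive pairs. Noggin, the product of Nog, binds BMPs outside the cell. In the adult hippocampus this pathway is known for keeping neural stem cells of the dentate gyrus quiescent, while noggin favours their division and the formation of neurons.

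The probes are 60 bases long, and those for Bmp2, Bmp4 and Bmp6 are shown because their letters are partly alike, so that a reader can see how far the probe of 1 ligand resembles that of another. They are printed in the orientation of the file. In an ungapped alignment 46 bases of the Bmp2 and Bmp4 probes overlapped, of which 36 were identical, with no more than 8 identical bases in a row. The Bmp4 and Bmp6 probes overlapped by 43 bases with 28 identical. Capitals mark the bases that differ within the overlap, in Bmp2 and Bmp4 from each other and in Bmp6 from Bmp4. The overlaps were bases 15 to 60 of Bmp2 with 1 to 46 of Bmp4, and 18 to 60 of Bmp4 with 1 to 43 of Bmp6. Bases outside the overlap are also in lower case and were not compared.
Bmp2: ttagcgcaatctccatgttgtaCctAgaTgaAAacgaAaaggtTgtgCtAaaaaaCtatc
Bmp4: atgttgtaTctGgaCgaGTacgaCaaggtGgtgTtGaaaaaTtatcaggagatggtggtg
Bmp6: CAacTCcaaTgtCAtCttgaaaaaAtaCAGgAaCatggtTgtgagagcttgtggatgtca
No other pair of the 10 probes had more than 27 identical bases at its best offset. On the rat build rn4 the Bmp2 probe lies at chr3:121381127-121381186 on the plus strand, and the Bmp4 and Bmp6 probes lie on the minus strand at chr15:22283362-22283421 and chr17:32380203-32380262. The letters AATAAA, the usual polyadenylation signal, were found on the printed strand in the Bmp7 and Id3 probes and in 8.39% of all 30367 probes. No label or file header places the probes in coding or untranslated sequence.

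Values below are normalised log2 signals, that is log2 signal after background subtraction, set relative to each array's 75th percentile. Levels of different probes were not compared, since probes differ in how they hybridise. Between 76.4% and 79.7% of spots were well above background in vehicle arrays and between 64.4% and 74.8% in Y+I arrays, lowest in Y+I animals 2 and 3. The median SD of a feature between animals was 0.134 in vehicle and 0.239 in Y+I. The 8 arrays shared 1 slide, where each group filled its own row, and row cannot be told apart from treatment. In bulk tissue, fewer cells of a type and less RNA per cell cannot be told apart either.

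None of the 10 genes passed the test between vehicle and Y+I, and the intervals of several leave room for sizeable differences. In limma, 0 of 10 passed at an adjusted p under 0.05, where 2.33% of all features did (0.739% higher in Y+I and 1.6% lower). Without adjustment, 1 of 10, Bmp2, had p under 0.05, against 15.6% of all features (6.46% higher and 9.16% lower). The count stayed at 0 in each of the 20 alternative analyses listed with the processing, 1 of which could test only 7 of the 10. The values of the 4 Y+I animals overlapped those of the 4 vehicle animals for all 10 genes, whereas 11.7% of all features showed no overlap. The difference, Y+I minus vehicle, was below 0 for 8 of the 10 genes and for 54.1% of all features, with a median of -0.20 over the 10 and -0.02 over all. Of these 8, Bmp2, Bmp6 and Nog were kept by the filter through vehicle. Each was well above background on all 4 vehicle arrays but only 3 Y+I arrays, so their place in this count is no support for a fall. After normexp background correction, which handles dim spots differently, 6 of the 10 were below 0, with a median of -0.04 against 0.09 over all features. That correction also turned the split of calls over all features from 139 higher and 300 lower to 400 higher and 202 lower. It adds an offset of 50 to every spot before scaling to the array's 75th percentile, so the offset weighs more where that percentile is low. In the processed signal the percentile was 1939 to 2106 in vehicle arrays and 1045 to 1971 in Y+I arrays. The part of this in the normexp values of dim probes was not tested.

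**Figure D1:**
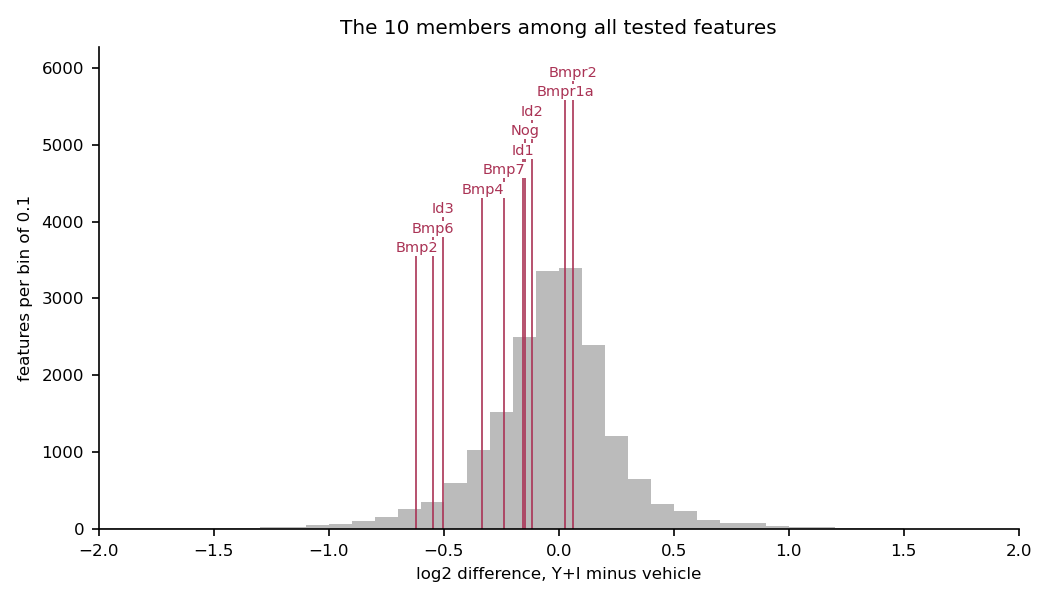
Histogram of the log2 difference between Y+I and vehicle (x axis) for all 18803 tested features, as features per bin of 0.1 (y axis; values beyond -2 and 2 are not drawn), with a line for each of the 10 BMP pathway genes. Bmp2 at -0.62 lies lowest and Bmpr2 at 0.06 highest, with 8 of the 10 lines to the left of 0.

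Among the ligands, Bmp2 showed the smallest p of the 10 genes. Bmp2 encodes a ligand known for bone formation and for guiding neural precursors towards glia. Its signal was -4.63, -4.79, -4.39 and -4.73 in vehicle animals 1 to 4 and -4.75, -5.34, -5.78 and -5.13 in Y+I animals 1 to 4. Y+I animals 2, 3 and 4 lay below every vehicle animal, and Y+I animal 1 lay within the vehicle range. The mean went from -4.63 ± 0.17 (SD, n = 4) to -5.25 ± 0.43, a 1.54-fold lower value in Y+I. The log2 difference was -0.62 ± 0.21 (SE), with a 95% interval of -1.08 to -0.15 before any adjustment (limma adjusted p = 0.179, unadjusted p = 0.0151). By unadjusted p the gene ranked 1588 of 18803. The probe was dim, and in Y+I animal 3, the lowest, it was not well above background. After normexp correction the difference shrank to -0.06 (adjusted p = 0.812), and over all alternatives that could test it the adjusted p lay between 0.0812 and 0.812.

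The Bmp2 value of Y+I animal 1 was the mean of a pair of spots that disagreed, at -5.27 and -4.24, whereas the paired spots of the other 3 Y+I animals lay close together. The first of these spots lay below all vehicle animals and the second above all of them. No spot was marked as an outlier by the scanner software, so both were kept.

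Bmp4, made in the adult brain by oligodendrocyte precursors and vessels among other cells, had 1 animal far from the other 7. Its signal was -1.10, -1.63, -1.52 and -1.14 in vehicle and -2.63, -1.28, -1.62 and -1.18 in Y+I animals 1 to 4. Y+I animal 1 stood far below the rest, and the other 3 Y+I animals lay inside the vehicle range. Both spots of Y+I animal 1 read -2.63, so the low value was not a matter of 1 spot. The log2 difference was -0.33 ± 0.30 (SE; 95% interval -1.02 to 0.36, limma adjusted p = 0.658), and without Y+I animal 1 it was -0.01. In that animal the Bmp2 mean was the highest of its group, but its spots disagreed (-5.27 and -4.24). Whether the related Bmp2 and Bmp4 probes moved together there cannot be told.

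Bmp6, known best for controlling iron balance, had the widest interval of the 10 genes. Its signal was -4.85, -4.19, -5.24 and -4.56 in vehicle and -4.46, -6.93, -4.26 and -5.39 in Y+I. Y+I animals 1 and 3 lay inside the vehicle range, animal 4 just under it, and animal 2, where the probe was not well above background, far under it. The difference of -0.55 ± 0.54 (SE) had a 95% interval of -1.77 to 0.67 (limma adjusted p = 0.685). It was 0.01 without Y+I animal 2 and 0.10 after normexp correction.

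Bmp7, abundant in meninges and choroid plexus, read -2.58, -2.36, -3.30 and -2.90 in vehicle and -2.59, -3.12, -3.04 and -3.33 in Y+I. The groups overlapped nearly throughout. The means were -2.78 ± 0.41 (SD, n = 4) and -3.02 ± 0.31, and the difference was -0.24 ± 0.22 (SE; 95% interval -0.75 to 0.27, limma adjusted p = 0.67). Its probe lies at chr3:163723705-163723764 (rn4, minus strand). This was the single gene of the 10 whose SD was not larger in Y+I than in vehicle. The SD was larger in Y+I for the other 9, as it was for 77.8% of all features.

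**Figure D2:**
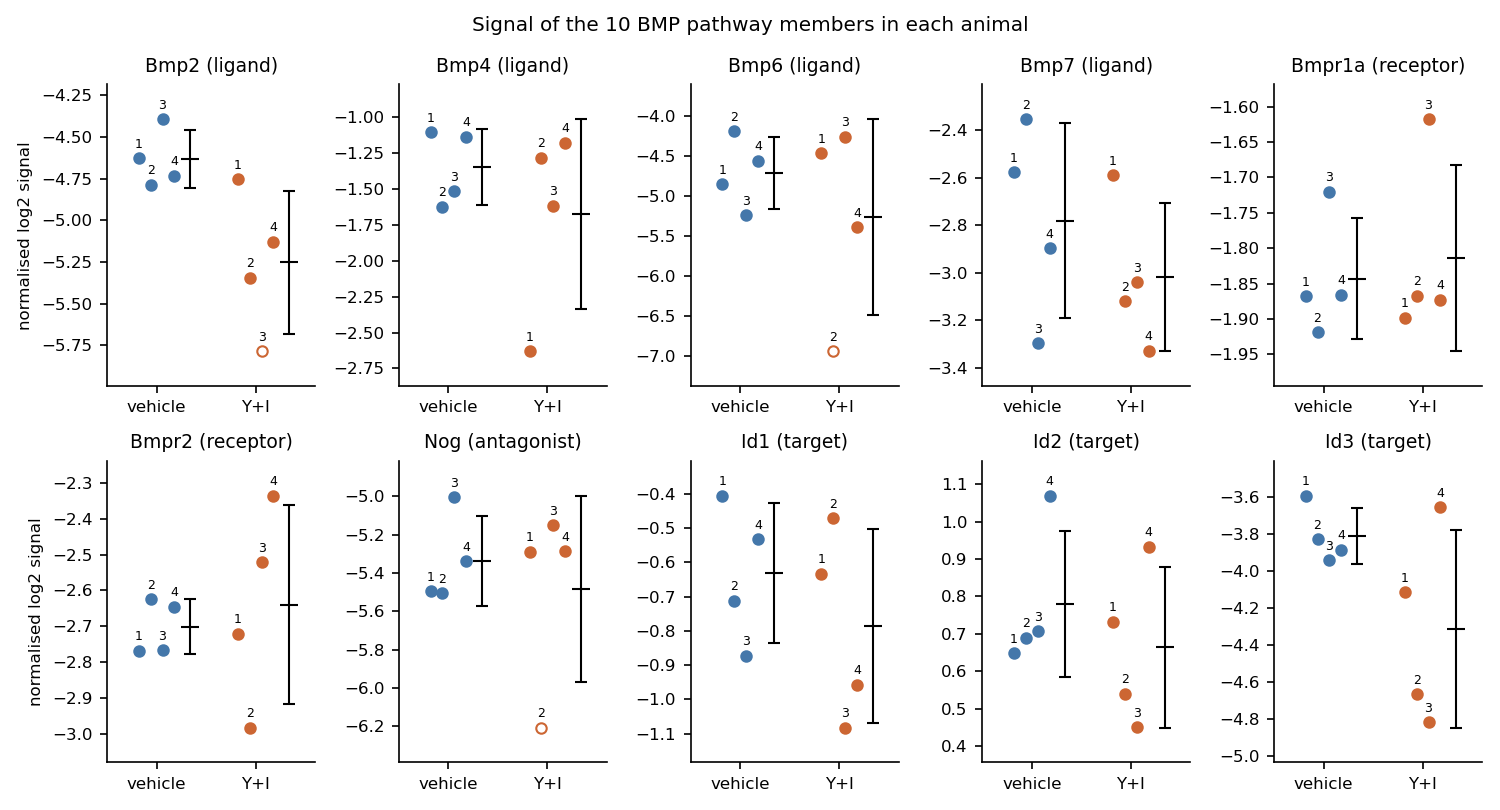
Normalised log2 signal (y axis, a scale for each panel) of each of the 10 genes in the 4 vehicle (blue) and 4 Y+I (orange) animals, numbered, with the mean and SD of each group in black. Open circles are values not well above background: Bmp2 in Y+I animal 3, and Bmp6 and Nog in Y+I animal 2. Every panel shows overlap between the groups.

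The receptor genes had the narrowest intervals of the 10. Bmpr1a, which encodes a type I receptor found on neural stem cells, read -1.87, -1.92, -1.72 and -1.87 in vehicle and -1.90, -1.87, -1.62 and -1.87 in Y+I. Apart from Y+I animal 3, all Y+I values lay within the vehicle range. The difference was 0.03 ± 0.10 (SE), and its 95% interval of -0.20 to 0.26 leaves room for at most 1.15-fold lower or 1.19-fold higher signal (limma adjusted p = 0.927). The probe lies at chr16:10062311-10062370 (rn4, minus strand).

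Bmpr2 encodes the type II receptor whose loss causes inherited pulmonary hypertension in people. It read -2.77, -2.62, -2.77 and -2.65 in vehicle and -2.72, -2.98, -2.52 and -2.34 in Y+I. The vehicle animals were tightly grouped, and Y+I animals lay both above and below them. The SD was 0.077 in vehicle and 0.277 in Y+I, 3.60 times as large. The difference in means was 0.06 ± 0.14 (SE; 95% interval -0.26 to 0.38, limma adjusted p = 0.884). The probe lies at chr9:58433667-58433726 (rn4, plus strand).

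The antagonist gene Nog read -5.50, -5.51, -5.01 and -5.34 in vehicle and -5.29, -6.21, -5.15 and -5.29 in Y+I. Y+I animals 1, 3 and 4 lay inside the vehicle range, and animal 2, not well above background, lay under it. The difference was -0.15 ± 0.23 (SE; 95% interval -0.68 to 0.39, limma adjusted p = 0.819). It turned to 0.09 without Y+I animal 2 and to 0.23 after normexp correction, so the sign of the Nog difference is not settled. The probe lies at chr10:77690164-77690223 (rn4, minus strand).

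The Id genes are the usual transcriptional readout of BMP signalling, and none of the 3 passed. Id1, expressed in vessels and in stem cells, was measured by 10 spots per array. It read -0.41, -0.71, -0.87 and -0.53 in vehicle and -0.63, -0.47, -1.08 and -0.96 in Y+I. Y+I animals 1 and 2 lay inside the vehicle range and animals 3 and 4 below it. The difference was -0.16 ± 0.16 (SE; 95% interval -0.52 to 0.21, limma adjusted p = 0.707), and it was nearly the same after normexp correction, at -0.15. The Id1 probe lies at chr3:143087157-143087216 (rn4, plus strand).

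Id2, broadly expressed in neurons and glia, read 0.65, 0.69, 0.71 and 1.07 in vehicle and 0.73, 0.54, 0.45 and 0.93 in Y+I. Vehicle animal 4 stood above all other animals, and Y+I animals 2 and 3 below all of them. The difference was -0.11 ± 0.14 (SE; 95% interval -0.44 to 0.21, limma adjusted p = 0.754). The 60 bases of the Id2 probe cover 350 bases of the genome at chr6:42782548-42782897 (rn4, minus strand), so the probe spans a gap in the genome sequence, as across an intron.

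Id3, which often accompanies Id1 in vessels and astrocytes, had the second smallest p of the 10 genes. It read -3.59, -3.83, -3.94 and -3.89 in vehicle and -4.11, -4.67, -4.82 and -3.66 in Y+I. Y+I animals 1, 2 and 3 lay below every vehicle animal and animal 4 near the top of the vehicle range. The means were -3.81 ± 0.15 (SD, n = 4) and -4.32 ± 0.53, a 1.42-fold lower value in Y+I, and the difference was -0.50 ± 0.24 (SE; 95% interval -1.05 to 0.04, limma adjusted p = 0.361). After normexp correction it was -0.08, and without Y+I animals 2 and 3 it was -0.07. The probe lies at chr5:154935647-154935706 (rn4, plus strand).

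Repeat spots on the same array give spot noise, which was set beside the spread between animals. With 1 array per animal, that spread also holds variation between arrays and part of the spot noise. Id1 had 10 spots per array and the other genes 2, so its ratio is not on the same footing. For Id1, Id2 and Id3 the pooled SD between animals was 3.64, 3.02 and 3.36 times the SD between spots of an array, and for Bmp4 it was 10.7 times. For Bmp2 it was 1.18 times, a value that became 2.28 without Y+I animal 1, whose spots disagreed, and 0.785 without Y+I animal 3. The ratios of the other 5 lay between 1.55 (Bmp7) and 2.49 (Bmp6). Single arrays moved several of them, and with 1 array left out the ratio ranged from 4.97 to 13.1 for Bmp4, 1.25 to 3.18 for Bmp7, 2.21 to 4.91 for Bmp6, 1.07 to 2.58 for Bmpr2, 0.773 to 1.89 for Nog and 2.13 to 4.34 for Id3. Of the 80 Id1 spot readings 1 was an outlier and was left out, and no spot of the other 9 genes was.

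Low values gathered on 2 arrays. Y+I animal 3 had the lowest value of all 8 animals for 4 of the 10 genes and Y+I animal 2 for 3. Over all features these arrays held the lowest value in 24.1% and 25.2% of cases. On the same arrays the share of spots well above background was lowest (64.4% and 65.3%), whose part in the members' low values was not tested. Relative to the vehicle mean, the median deviation of the 10 genes was -0.27 in Y+I animal 3 and -0.31 in animal 2, against -0.03 in animal 1 and 0.01 in animal 4.

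**Figure D3:**
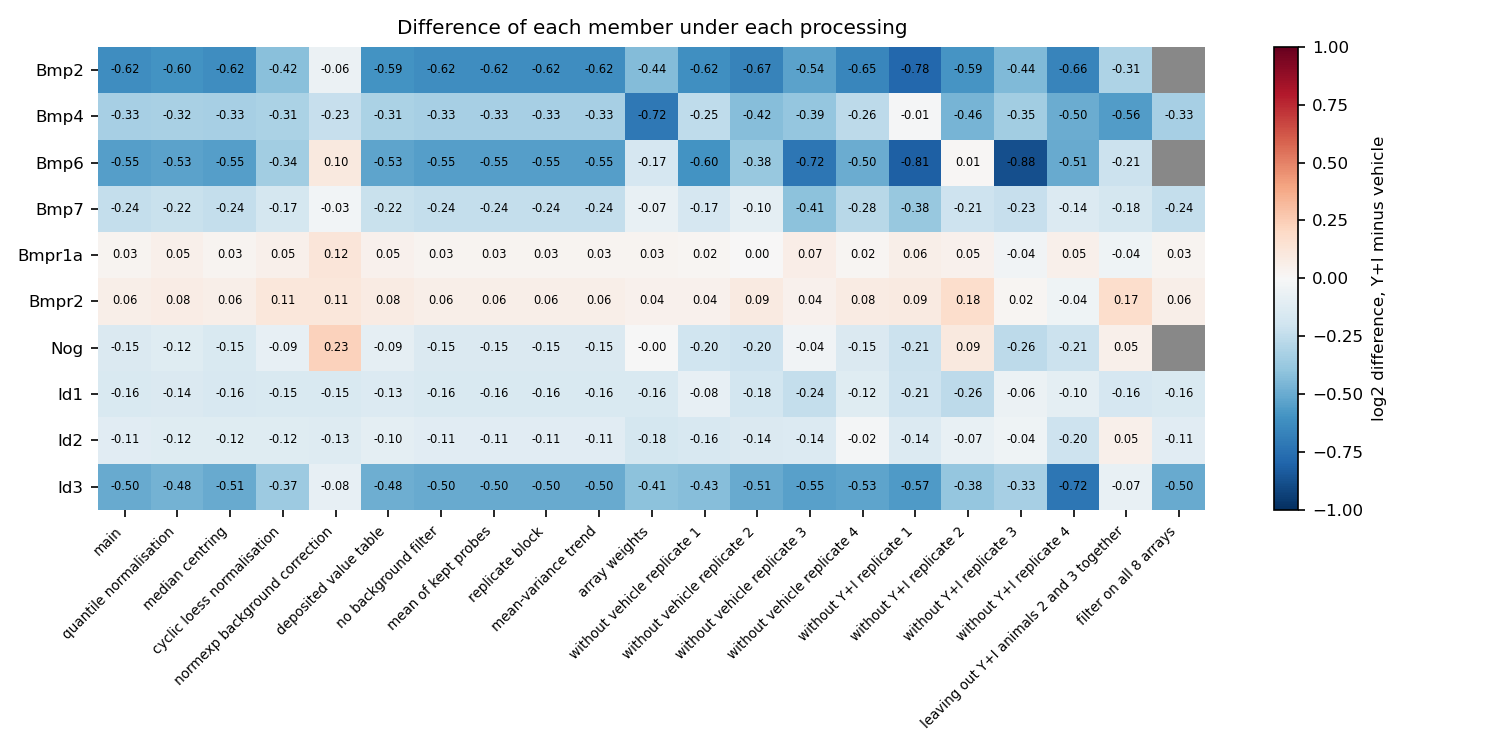
Log2 difference between Y+I and vehicle of each of the 10 genes (rows) under the main processing and each alternative (columns), with colour from blue (lower in Y+I) to red (higher) and the value printed in each cell; grey cells were not tested. Bmp2 and Id3 stay below 0 throughout but come near 0 with normexp (-0.06 and -0.08), and Bmp6 and Nog change sign there.

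The rest of the pathway was read from 5 lists of other BMP genes, 50 of whose 59 members were tested. Bmp5, Bmp10, Gdf2, Hjv, Chrdl2 and Smad9 did not pass the filter on dim signals, and no probe was matched by symbol to Bmp8b, Rgmb or Dand5. Of the 50 tested, 2 rose (Skil and Runx2), 1 fell and 47 did not pass, which is 6% called against 2.33% of all features. Without adjustment 16 of the 50 had p under 0.05, 5 higher and 11 lower, where 15.6% of all features did (6.46% higher and 9.16% lower). Their median difference was -0.02, with 26 below 0, as against -0.02 over all features. With normexp it was 0.17, with 15 below 0, against 0.09 over all features. The groups did not overlap for 15 of the 50 (30.0%), against 11.7% of all features. Among the 11 lower genes, Bmp3, Acvr2a, Fstl3, Cer1 and Sostdc1 were kept by the filter through vehicle, being dim in 1 or more Y+I animals. The rest of the 16 were dim in no animal. With a filter on all 8 arrays 37 of the 50 could be tested, and 2 rose and 2 fell. The part of dim signals in the unadjusted and overlap counts was not tested.

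Skil encodes SnoN, a repressor that binds Smad complexes. It read -5.22, -4.94, -5.19 and -5.08 in vehicle and -4.49, -4.67, -4.52 and -4.29 in Y+I. All 4 Y+I animals lay above all vehicle animals, and the gene rose 1.53-fold (log2 difference 0.61 ± 0.11 SE, limma adjusted p = 0.0307). Of the 8 analyses that each left out an array it passed only in that without Y+I animal 2, and adjusted p reached 0.0996 without vehicle animal 4. Leaving out Y+I animals 2 and 3 together gave 0.0588.

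Runx2, a transcription factor gene of bone formation that BMPs induce there, rose 1.86-fold at its brightest probe. That probe read -4.26, -4.38, -4.37 and -4.44 in vehicle and -3.51, -3.16, -3.58 and -3.63 in Y+I, with no overlap (log2 difference 0.89 ± 0.12 SE, limma adjusted p = 0.0104). The call was kept whichever array was left out. The other 2 Runx2 probes, well above background on 1 Y+I array each, gave -0.22 and -0.24, and with the mean of the kept probes the gene did not pass (adjusted p = 0.459, over a range of 0.00359 to 0.459 in all alternatives).

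Of the Smads and their regulators, 1 of 11 rose and 10 did not pass (median 0.07). The receptor-activated Smad1 and Smad5 stood at -0.06 ± 0.11 (SE) and 0.10 ± 0.14, the shared partner Smad4 at 0.16 ± 0.19, and the inhibitory Smad6 and Smad7, which BMP signalling induces, at -0.02 ± 0.20 and -0.05 ± 0.09. Adjusted p-values in limma lay between 0.747 and 0.97 for these 5. Smad9 was not well above background on enough arrays and was not tested. Ski, a repressor related to Skil, was at 0.25 ± 0.21 and Lemd3, a nuclear membrane protein that binds Smads, at 0.14 ± 0.11.

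Of the other receptors and co-receptors none of 9 passed, but 7 were below 0 with a median of -0.29 (-0.01 with normexp), and 5 had an unadjusted p under 0.05, where 15.6% of all features did. The activin receptor gene Acvr2b stood at -0.42 ± 0.11 (SE; limma adjusted p = 0.0975, and 0.0433 with the mean of its probes) and the endothelial receptor genes Acvrl1 and Eng at -0.44 ± 0.12 (adjusted p = 0.106) and -0.60 ± 0.17 (adjusted p = 0.13). In all 3 the groups did not overlap, but these genes were named for their small p. The groups did not overlap for 4 of the 9, against 11.7% of all features. Another of the 5, the activin receptor gene Acvr2a, was dim in all Y+I animals but 1. Bmpr1b and Acvr1, which encode type I receptors, were at -0.04 ± 0.14 and 0.14 ± 0.17, and were well above background on 2 and 1 of the Y+I arrays.

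Of the other extracellular antagonists and modulators, 14 of 15 did not pass; 8 of the 15 were above and 7 below 0 (median 0.02). Bmper, whose product binds BMPs in vessel walls, was at -1.03 ± 0.23 (SE; limma adjusted p = 0.0642), and at -0.53 with normexp. It passed in 4 alternatives, among them that without vehicle animal 2 (adjusted p = 0.0322). Cer1, the gene of the antagonist cerberus, was too dim on all 4 Y+I arrays to give a fold, with a measured difference of -0.71 (adjusted p = 0.0524) that became 0.15 with normexp. It passed in 4 alternatives, among them that without Y+I animal 4 (0.0344). Chrd, Grem1 and Fst, which encode the antagonists chordin, gremlin 1 and follistatin, were at 0.22 ± 0.13, 0.44 ± 0.16 and 0.73 ± 0.36, with adjusted p of 0.492, 0.215 and 0.384.

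None of the 5 other ligands tested passed. Bmp3, which encodes a ligand that opposes other BMPs, had the largest difference, -1.24 ± 0.28 (SE; limma adjusted p = 0.0601), but it was well above background on only 1 Y+I array and the value was -0.05 with normexp. It passed in 4 alternatives, among them that without Y+I animal 4 (adjusted p = 0.0345). Gdf6 and Gdf7 were at 0.40 ± 0.18 and 0.27 ± 0.15. Of the 10 other target genes, Runx2 passed and 9 did not (median 0.20). Msx1 was at 0.46 ± 0.15 (adjusted p = 0.158) and Id4, the fourth Id gene, at 0.25 ± 0.13 (adjusted p = 0.416), above 0 where Id1, Id2 and Id3 were below it.

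**Figure D4:**
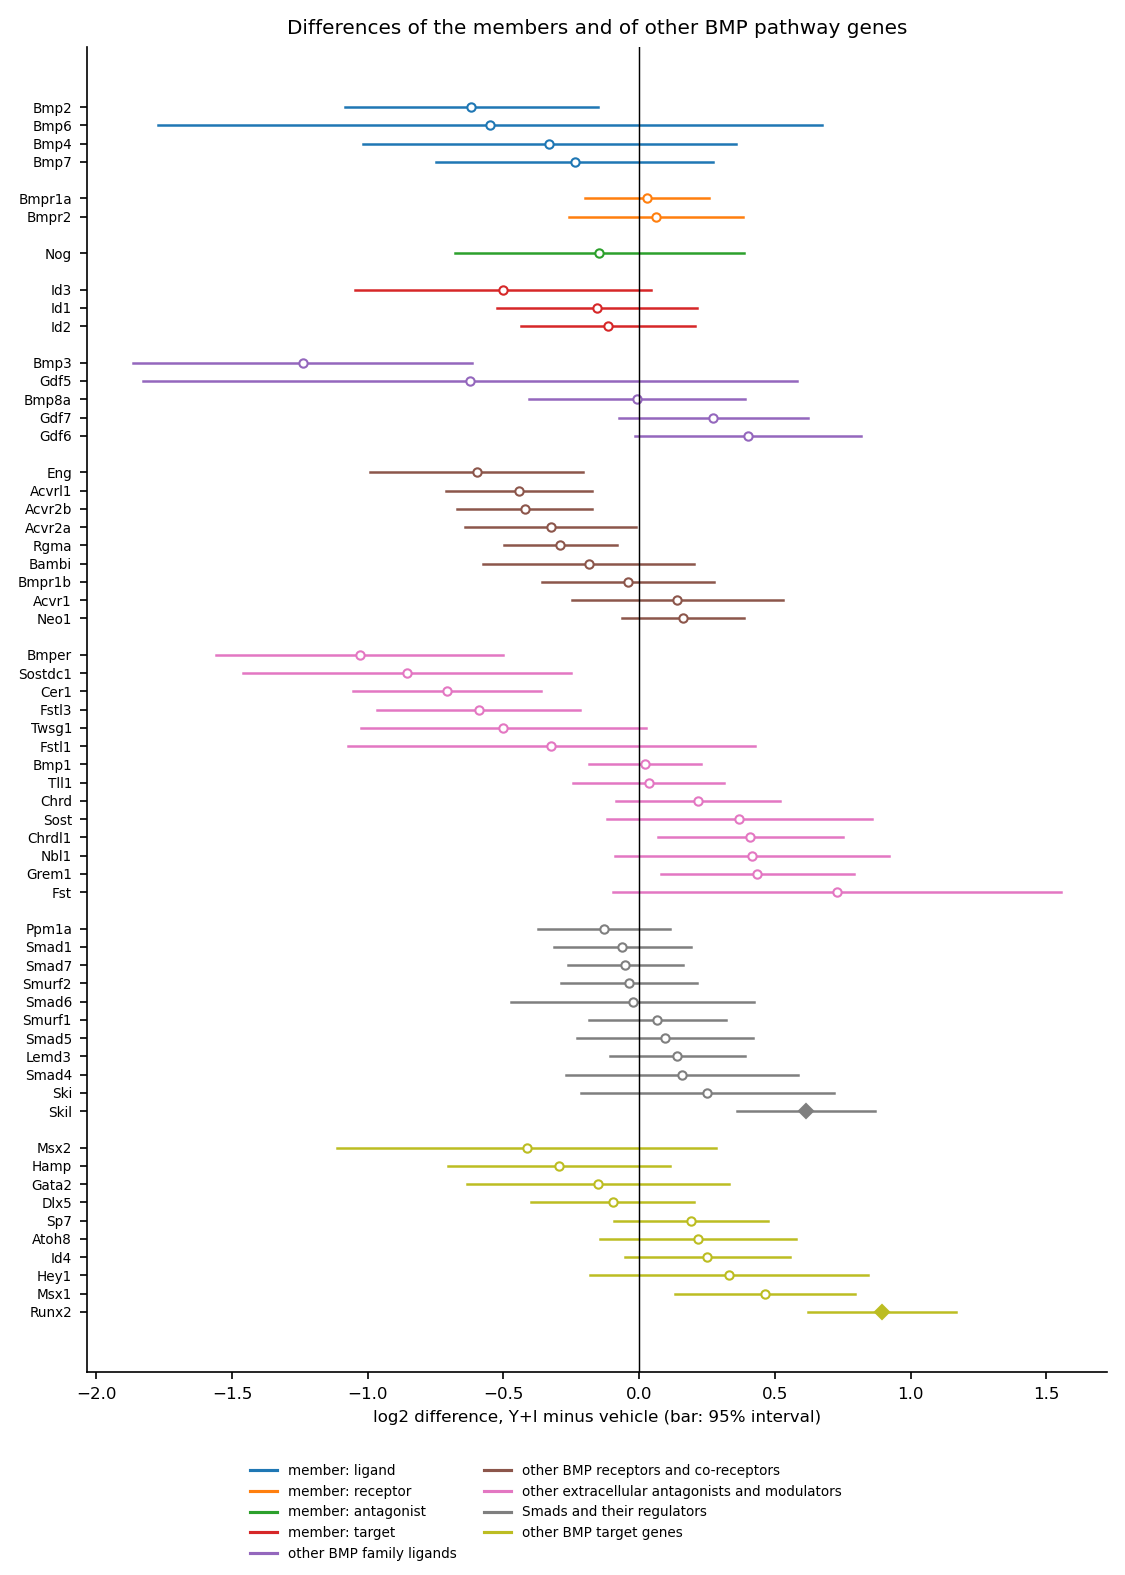
Log2 difference between Y+I and vehicle (x axis) with its unadjusted 95% interval (bars) for the 10 members and for other BMP pathway genes tested, coloured by list. Filled diamonds mark Skil and Runx2, at an adjusted p under 0.05; open circles did not pass, which includes all 10 members.

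Single genes passed in some of the marker lists of cells and regions that can express BMP genes. The lists themselves were not tested. For the marker counts here and below, 2.33% of all features passed (0.739% higher and 1.6% lower) and 54.1% were below 0. Hippocampal neuron markers were measured in 10 of 10 cases, 9 of them above 0 (median 0.53, and 0.55 with normexp), and their mean per animal was -1.32 to -1.16 in vehicle animals against -1.04 to -0.64 in Y+I animals. The kinase gene Camk2a rose (0.78 ± 0.15 SE, limma adjusted p = 0.0366), but it did not pass when any 1 of the 8 arrays was left out (0.051 to 0.106). Meningeal and fibroblast markers, which mark a source of Bmp7, had 13 of 14 below 0 (median -0.54, and -0.23 with normexp), with list means of -2.49 to -2.30 against -3.12 to -2.80. Of these, 3 fell: the transporter gene Slc6a13 (-1.02 ± 0.14, adjusted p = 0.0105), the collagen gene Col1a1 (-1.03 ± 0.15, adjusted p = 0.0135) and Igfbp2 (-0.73 ± 0.15, adjusted p = 0.0383), the last named after its value was seen. Slc13a4 of this list was dim on every Y+I array.

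Endothelial and mural markers, which mark cells that express Id1, Id3, Acvrl1 and Eng, had 13 of 16 below 0 (median -0.16, and -0.04 with normexp), with list means of -1.71 to -1.61 in vehicle animals and -2.12 to -1.81 in Y+I animals. The vascular receptor gene Kdr fell (-1.03 ± 0.13, limma adjusted p = 0.00932), and the other 15 did not pass. Markers of thalamus, habenula and striatum had 9 of 13 below 0 (median -0.64, and -0.42 with normexp), with list means of -2.22 to -2.01 against -2.65 to -2.53, and Slc17a6 and Drd2 fell (-1.17 ± 0.21 and -0.60 ± 0.11, adjusted p = 0.0291 and 0.0278), each passing in 2 of the 8 analyses without an array. The part of these lists in the values of the 10 BMP genes was not tested.

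Lists of other candidate sources of BMP genes overlapped between the groups in their mean per animal. Oligodendrocyte precursor markers stood at -0.297 to -0.106 in vehicle and -0.109 to -0.058 in Y+I. They overlapped only narrowly, between vehicle animal 4 and Y+I animal 1, and 7 of their 9 genes were above 0 (median 0.16). Astrocyte markers stood at 1.56 to 1.74 and 1.55 to 1.63, and stem and progenitor markers at -1.19 to -1.05 and -1.20 to -1.09. Choroid plexus markers stood at -3.08 to -1.43 and -2.60 to -1.96, with 4 of 10 tested; Kl, Kcnj13, Otx2, Clic6, Prlr and Tmem72 did not pass the filter. None of the 31 tested genes of these 4 lists passed, where 2.33% of all features did, so few calls would be looked for among so few genes. Of 7 blood cell markers, Hbb and Alas2 fell (-0.99 ± 0.15 and -0.90 ± 0.16, limma adjusted p = 0.017 and 0.0289). They passed in 5 and 1 of the 8 analyses without an array. In the other direction, S100a8, S100a9 and Cd3e stood at 2.18, 2.08 and 3.28 but did not pass (limma adjusted p = 0.158, 0.129 and 0.101). Cd3e was well above background on only 2 vehicle arrays. Of the 7 markers, 4 were above and 3 below 0, and the list means were -4.51 to -3.77 and -4.11 to -2.97.

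**Figure D5:**
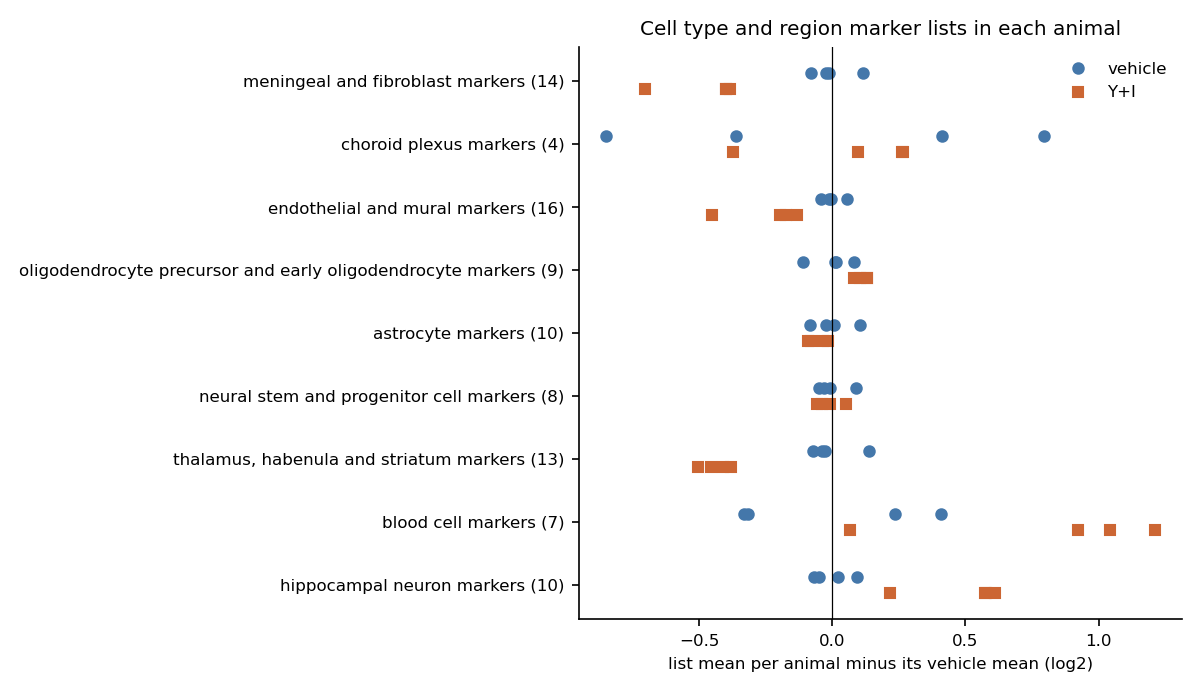
Mean normalised log2 signal of each marker list per animal, minus the mean of the 4 vehicle animals (x axis), for vehicle (circles) and Y+I (squares); the number of genes tested is in brackets. The groups separate for the meningeal list, the endothelial list, the pooled list of thalamus, habenula and striatum, and the hippocampal neuron list. They overlap for the astrocyte, progenitor, choroid plexus and blood lists. They overlap only narrowly for the oligodendrocyte precursor list.

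The profile of Bmp2 over the 8 arrays was most like those of Samm50, Khnyn, Prnd, Slc52a3 and Sfrp4 among 13280 named genes, with Pearson r between 0.95 and 0.962. The 8 arrays share the group difference and array quality, so these values are a description. None of the 5 passed in limma, and Sfrp4, which encodes a secreted frizzled-related protein, was at -0.58 (adjusted p = 0.337). Of the other 9 BMP genes, Id3 was closest to Bmp2, with r = 0.763, and Bmp4 was at -0.06.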

How the data were processed

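Each of the 8 animals had 1 array. Spot intensity was extracted by the Agilent software Feature Extraction (10.5.1.1), per the file headers; the processed intensity is background-subtracted and detrended, per the file headers, and not normalised between arrays. A deposited table of log2 values has column medians from -3.51 to -3.35; its centring is not stated, and it served as an alternative.

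Processed intensity was put on a log2 scale and the array's 75th percentile over noncontrol spots was subtracted. Outlier spots were dropped and spots of a probe averaged. Of 30367 probes, 21370 were kept: in 1 group or the other, at least 50% of their spots had to be well above background on all 4 arrays, with at least 3 values per group. This filter can keep a gene through the group where it is high. Symbols were updated through RefSeq (GRCr8) by accession (18004 probes), symbol (2320) or synonym (626); 1999 kept the file's name and 7418 had none. The brightest kept probe stood for a gene, giving 18803 features. Groups were compared with limma 3.58.1 (lmFit, eBayes; R 4.3.3) by two-sided tests, adjusted after Benjamini-Hochberg over all features; the procedure was tested on simulated data. Figures used matplotlib 3.10.9 in Python 3.11.15.

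The 20 alternatives were quantile, median and cyclic loess normalisation, normexp (offset 50), the deposited table, no filter, a filter on all 8 arrays, the mean of probes, a block for animal number, a variance trend, array weights, each array left out, and Y+I animals 2 and 3 left out. Leaving out each array from the ratio of animal to spot spread was added after seeing the data. The members, lists and alternatives were chosen with earlier results of these data known. Named genes were the members, the called pathway genes, the 3 smallest p of each pathway list with 12 fixed genes, and the 2 smallest p of each marker list; 1 called pathway gene counted among these is not reported here. A few other genes were named after their values were seen. Precision is limited by the number of arrays.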

Additional observations from a re-analysis of the deposited data

Results flagged for a closer look

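A value far from the other 3 of its group was found in 7 of 106 groups of 4 animals checked by Dixon's test, for the named genes in each treatment; chance flags about 1 group in 20. Among the 10 BMP genes these were Nog in Y+I animal 2 at -6.21 (the nearest other at -5.29), where the probe was not well above background, Bmpr1a in Y+I animal 3 at -1.62 (nearest -1.87), and Id2 in vehicle animal 4 at 1.07 (nearest 0.71). Among the other named genes, Y+I animal 4 stood apart from its group for Gdf6 at -3.75, Gdf7 at -2.74, Slc17a6 at -0.17 and Neu4 at -2.19.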

How the results depend on the processing

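The count of called members was 0 in each of the 20 alternatives. Over all features, 439 calls became 665 with cyclic loess, 3887 without a filter and 164 without Y+I animals 2 and 3, and ranged from 121 (without vehicle animal 4) to 355 (without Y+I animal 3) with 1 array left out. For the other BMP pathway genes, 3 calls became 7 with cyclic loess, 9 without a filter (which tested more genes), 5 with array weights and 1 without Y+I animals 2 and 3, and ranged from 1 to 3 with 1 array left out.

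The groups share animal numbers, but deviations of same-numbered animals correlated at -0.11 to 0.05, so the numbers were not treated as pairs. With the replicate block, 0 members, 144 features and 2 of the other pathway genes were called.

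Some log2 differences changed sign, none of them called. With normexp this held for Bmp6 (0.10), Nog (0.23), Bmpr1b (0.25), Cer1 (0.15), Smad6 (0.13) and Aqp1 (0.17, and 0.16 with the deposited table). With cyclic loess it held for Acvr1 (-0.12) and Smad6 (0.085), and with quantile normalisation for Bmpr1b (0.00019). Without Y+I animals 2 and 3 it held for Bmpr1a (-0.042), Id2 (0.054), Nog (0.048), Bmpr1b (0.12) and Smad6 (0.041). With 1 array left out, the difference ranged from -0.88 to 0.0098 for Bmp6, -0.26 to 0.094 for Nog, -0.036 to 0.070 for Bmpr1a, -0.040 to 0.18 for Bmpr2, -0.13 to 0.057 for Bmpr1b, -0.14 to 0.0079 for Smad1, -0.031 to 0.19 for Smad5 and -0.15 to 0.14 for Smad6. The causes of these changes were not tested. Bmp2, Bmp6 and Nog were each not well above background on 1 Y+I array.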
